A study of Mus musculus with 42 samples.

Results

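The 10 genes described here, Glul, Oat, Cyp1a2, Cyp2e1, Lgr5, Tbx3, Axin2, Slc1a2, Rhbg and Lhpp, are genes that hepatocytes around the central vein express under control of Wnt signalling. They were chosen by symbol, with identifiers mapped to symbols, among the 54446 genes counted in mouse liver. RNA came from whole snap-frozen liver of 42 female APOE*3-Leiden mice, 1 library per mouse, after 32 weeks. These transgenic mice carry a human apolipoprotein E variant that slows lipoprotein clearance, and they stand as a model of fatty liver disease with hyperlipidemia. The 10 chow-fed mice stayed on maintenance chow as a healthy reference, and their age is not given in the sources used here. The other 32 mice started at 8 to 14 weeks of age on a Western-type diet (WTD) with 15% cocoa butter, 40.5% sucrose and 1% cholesterol, given for 3 weeks before week 0 and throughout the study. From week 22, 0.05% sodium cholate was added to that diet in both WTD groups. Of these mice, 16 received WTD alone and 16 received WTD with atorvastatin, an inhibitor of HMG-CoA reductase, at 3.0 mg/kg/day and from week 5 at 4.5 mg/kg/day. Chow and WTD, a semi-synthetic diet, thus differed at least in fat, sugar, cholesterol and cholate together, which cannot be told apart here. The WTD groups were matched at week 0 for age, body weight and plasma lipids. No such matching is described for the chow-fed mice. Mouse names begin with AZ on chow and with Gen in both WTD groups, for a reason not given in the sources used here.

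Along the liver lobule, endothelial cells of the central vein release Wnt ligands and R-spondins. In the nearest hepatocytes these stabilise beta-catenin, which with TCF/LEF factors switches on a pericentral programme and holds back periportal genes. That programme captures ammonia as glutamine (Glul, glutamine synthetase, with the glutamate transporter Slc1a2, the ammonium transporter Rhbg and the ornithine aminotransferase Oat) and oxidises xenobiotics (Cyp1a2 and Cyp2e1). Lgr5 is a receptor for R-spondins, Axin2 a feedback inhibitor of the pathway, and Tbx3 a transcription factor. Lhpp is a phosphohistidine phosphatase.

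The sequences just ahead of a RefSeq start site of 4 members are shown because TCF/LEF factors are the nuclear end of the Wnt pathway. RefSeq start sites on GRCm38.p6 gave 250 upstream bases for 6 of the 10 members (Glul, Oat, Cyp1a2, Cyp2e1, Axin2 and Slc1a2). Searching both strands for CTTTGAT or CTTTGAA, the core of a TCF/LEF site, found 1 match each in Cyp1a2, Cyp2e1 and Slc1a2, and none in the windows of Glul, Oat and Axin2. Of 32851 promoters of the same length, 7.48% held such a match. The letters TNGCGTG, the core bound by the aryl hydrocarbon receptor, were in none of the 6 windows and in 4.10% of all promoters. A match is a string of letters, not a measured binding site. Printed below, 5′ to 3′ on the gene's strand with the matched letters in capitals, are the bases of each window up to the first annotated exon base in it. They are chr9:57683704-57683905 on the minus strand for Cyp1a2 (match 244 to 238 bases upstream, read on the opposite strand) and chr7:140763569-140763738 on the plus strand for Cyp2e1 (match 135 to 129 bases upstream). The stretch for Slc1a2 is chr2:102706188-102706355 on the plus strand (match 207 to 201 bases ahead of that start site, opposite strand). This start site is internal to Slc1a2 as annotated for the counts, whose span begins at 102658659, so the stretch lies inside the gene and not ahead of it. The stretch for Axin2, without a match, is chr11:108920099-108920348 on the plus strand.
Cyp1a2: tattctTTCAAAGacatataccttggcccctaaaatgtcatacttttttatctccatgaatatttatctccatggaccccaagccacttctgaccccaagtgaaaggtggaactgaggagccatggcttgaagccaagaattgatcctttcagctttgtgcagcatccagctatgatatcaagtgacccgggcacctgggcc
Cyp2e1: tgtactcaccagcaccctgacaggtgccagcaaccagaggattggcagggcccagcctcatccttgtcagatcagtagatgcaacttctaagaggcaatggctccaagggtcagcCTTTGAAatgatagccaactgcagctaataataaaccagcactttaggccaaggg
Slc1a2: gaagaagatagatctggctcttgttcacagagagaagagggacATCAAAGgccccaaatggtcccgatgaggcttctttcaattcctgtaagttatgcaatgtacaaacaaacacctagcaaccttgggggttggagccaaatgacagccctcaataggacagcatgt
Axin2: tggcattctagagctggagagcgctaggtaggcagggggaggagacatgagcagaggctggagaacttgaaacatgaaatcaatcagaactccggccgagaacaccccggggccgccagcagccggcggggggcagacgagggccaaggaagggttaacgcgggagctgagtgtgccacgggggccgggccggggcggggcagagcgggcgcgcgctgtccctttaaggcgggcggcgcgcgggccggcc

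The counts on genes ranged from 15661381 to 36224054 per mouse. Levels are given as CPM, the counts relative to library sizes scaled by edgeR's TMM method, and groups were compared in 1 edgeR quasi-likelihood model of all 42 mice. A gene was called changed at a Benjamini-Hochberg adjusted p under 0.01 over the 15574 genes with enough counts, the threshold that the study used. Of the 10 members, 8 were tested. In 8 libraries over 20% of genes at 1 to 2 CPM had no count, so values of weak genes in single mice carry little information.

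Oat and Rhbg could not be compared. Oat (chr7:132557478-132576398, minus strand) had 0 counts in all 42 mice. Its 2360 exon bases all lie inside the span of Fgfr2 (chr7:130162451-133123350), a growth factor receptor gene on the same strand, with 0 of them in an Fgfr2 exon. Of 256 protein-coding genes that lie so inside a same-strand gene without shared exons, 255 had 0 counts, against 208 of 738 that lie only inside a gene of the opposite strand. The listed 0 therefore says nothing of Oat expression. Rhbg (chr3:88242874-88254709, minus strand) had 290 counts over all mice, and 506 of its 1937 exon bases lie outside the same-strand gene Gm38392. Its level ranged from 0 to 3.01 CPM on chow, 0 to 2.18 on WTD and 0 to 1.33 on WTD with atorvastatin, with 7, 8 and 7 mice at 0. Lhpp also lies within the Fgfr2 span, but on the opposite strand, and had 77785 counts.

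Levels of different members were compared per kilobase of exon. In chow-fed mice the mean level was 2985 CPM per kilobase for Cyp2e1, 377 for Glul, 314 for Cyp1a2, 58.7 for Lhpp, 16.1 for Slc1a2, 8.44 for Tbx3, 3.24 for Axin2 and 1.50 for Lgr5. The ranges over mice of Glul and Cyp1a2 overlapped, as did those of Slc1a2 and Tbx3 and those of Axin2 and Lgr5, whereas the other neighbours in this order were separate. The order was the same in both WTD groups. On WTD, Glul at 323 CPM per kilobase lay further above Cyp1a2 at 155, though their ranges still overlapped.

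WTD feeding lowered 6 of the 8 tested members and raised none, while 33.5% of all tested genes were called in either direction, 16.0% lower and 17.5% higher. The called members were Slc1a2, Cyp1a2, Cyp2e1, Lhpp, Tbx3 and Lgr5. Glul and Axin2 were not called. The median log2 fold change over the 8 members was -0.94, beside 0.03 over all tested genes. In no member were the groups fully separate, a pattern that 2.43% of all genes showed in the lower direction. In whole-liver RNA, fewer cells of a type and less RNA per cell cannot be told apart.

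Among the genes of ammonia capture, Glul (chr1:153899944-153909723) ranged from 1017 to 1485 CPM on chow (median 1234), from 682 to 1691 on WTD (median 1027) and from 264 to 1728 on WTD with atorvastatin (median 1293). The chow range lay inside the wider WTD range, and 14 of 16 WTD-fed mice were below the chow median. Of the 16, 8 were below every chow-fed mouse and 1 was above all of them. The log2 difference of WTD and chow was -0.22 (95% interval -0.54 to 0.10, edgeR quasi-likelihood adjusted p = 0.26). Spread between mice was 11.7% of the mean on chow, 22.9% on WTD and 30.9% with atorvastatin, a difference that was not tested. With atorvastatin the lowest mouse, replicate 7, had 264 CPM and the next lowest 672.

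Slc1a2 (chr2:102658659-102790784) carries glutamate into the cell. It ranged from 159 to 246 CPM on chow (median 221), from 48.7 to 211 on WTD (median 80.9) and from 20.7 to 198 with atorvastatin (median 122). In 15 of 16 WTD-fed mice the level was below that of every chow-fed mouse. The exception was WTD replicate 15 at 211 CPM, and the next highest WTD-fed mouse had 126. The log2 fold change was -1.23 (standard error 0.22, adjusted p = 1.3e-05, edgeR quasi-likelihood test), a level 57.3% lower and the largest fall among the members.

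Of the xenobiotic enzymes, Cyp2e1 (chr7:140763739-140774987), which oxidises ethanol and small solvents, ranged from 5499 to 8363 CPM on chow (median 6326) and from 2312 to 8307 on WTD (median 2885). Again 15 of 16 WTD-fed mice lay below every chow-fed mouse, with replicate 15 as the exception and the others at or below 3784 CPM. Cyp2e1 thus had a log2 fold change of -0.98 (SE 0.20, adjusted p = 5.6e-05, edgeR quasi-likelihood test). Cyp1a2 (chr9:57676937-57683703) metabolises caffeine and aromatic amines. Its level ran from 499 to 768 CPM on chow (median 669) and from 183 to 589 on WTD (median 302). It was below every chow-fed mouse in 15 of 16 WTD-fed mice. Its log2 fold change was -1.02 (standard error 0.13, adjusted p = 1.1e-08, edgeR quasi-likelihood test).

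The members of the Wnt pathway itself behaved unequally. Lgr5 (chr10:115450311-115587780) ran from 8.51 to 33.2 CPM on chow (median 14.3) and from 8.11 to 15.5 on WTD (median 9.61). Only 4 of 16 WTD-fed mice were below every chow-fed mouse, so the groups overlapped widely. The log2 fold change was -0.59 (standard error 0.17, adjusted p = 0.0038, edgeR quasi-likelihood test). This call rested on chow replicate 2, the highest mouse at 33.2 CPM, since without it the log2 fold change was -0.39 (adjusted p = 0.038, edgeR quasi-likelihood test). In that mouse's library 59.0% of the genes at 1 to 2 CPM had no count. It was also lost without the 8 libraries poor in weak genes (log2 fold change -0.36, adjusted p = 0.080, edgeR quasi-likelihood test).

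Axin2 (chr11:108920349-108950783), a widely used readout of Wnt activity, ran from 6.34 to 23.7 CPM on chow (median 17.8) and from 7.85 to 29.7 on WTD (median 15.8). Both groups covered almost the same range, but the chow minimum was 1 mouse, replicate 6, and the next lowest stood at 16.2 CPM. The log2 difference was -0.10 (95% interval -0.42 to 0.23, adjusted p = 0.67, edgeR quasi-likelihood test), so a fall as large as those of the xenobiotic enzymes lies outside the interval. Tbx3 (chr5:119670669-119684724) ran from 30.5 to 95.4 CPM on chow (median 51.5) and from 11.5 to 55.7 on WTD (median 26.5), with 10 of 16 WTD-fed mice below every chow-fed mouse. Tbx3 fell by 0.89 on the log2 scale (SE 0.20, adjusted p = 0.00024, edgeR quasi-likelihood test). An antisense gene, Tbx3os1, overlaps the start of Tbx3 on the other strand.

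Lhpp (chr7:132610638-132706420) ran from 100 to 202 CPM on chow (median 135) and from 42.1 to 108 on WTD (median 69.0). WTD replicate 15 was the 1 mouse that reached the chow range. Lhpp fell by 0.98 on the log2 scale (SE 0.16, adjusted p = 2.8e-06, edgeR quasi-likelihood test).

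**Figure D1:**
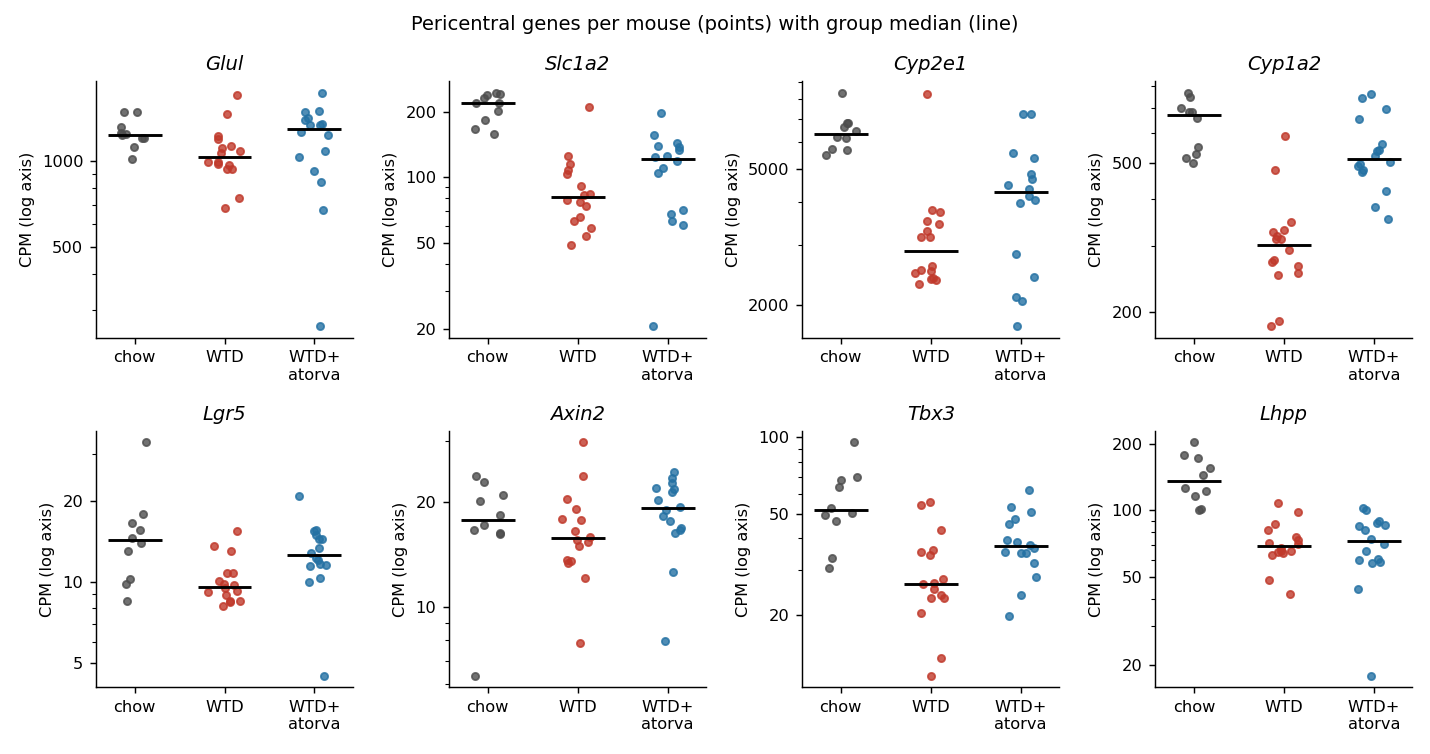
CPM of the 8 tested members in each mouse, on log axes, for chow (10 mice), WTD (16) and WTD with atorvastatin (16), with a line at each group's median. Slc1a2, Cyp2e1, Cyp1a2 and Lhpp show 1 WTD-fed mouse within the chow range and 15 below it, whereas Axin2 and Glul overlap across groups.

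Adding atorvastatin to WTD raised 1 of the 8 tested members, Cyp1a2, and lowered none. Of all tested genes 7.10% were called, 4.84% higher and 2.26% lower. A single call among 8 genes says little beyond this background. The log2 differences of 7 of the 8 members were above 0, with a median of 0.32 beside 0.00 over all genes. No member separated the groups fully, and over all genes 0.00642% did so in the higher direction. This comparison and that of WTD with chow share the WTD-fed mice, so a high or low value in that group moves both in opposite directions.

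Cyp1a2 ranged from 353 to 763 CPM with atorvastatin (median 511), against 183 to 589 without. All 16 treated mice were above the median of the untreated WTD-fed mice, and 4 were above all of them. The log2 fold change was 0.78 (standard error 0.12, adjusted p = 2.0e-05, edgeR quasi-likelihood test), a level 72.2% higher. It was called with each of the 42 mice left out in turn (log2 fold change 0.74 to 0.87).

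Cyp2e1 ran from 1738 to 7243 CPM with atorvastatin (median 4272). It spread widely, with 3 treated mice below all untreated ones and 11 of 16 above their median. The log2 difference was 0.37 (95% interval 0.01 to 0.72, adjusted p = 0.18, edgeR quasi-likelihood test). Slc1a2 gave 0.30 (-0.10 to 0.70, adjusted p = 0.38), again with 11 of 16 treated mice above the untreated median. Glul gave 0.13 (-0.15 to 0.41, adjusted p = 0.65).

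Tbx3 ran from 19.8 to 62.1 CPM with atorvastatin (median 37.2), Lgr5 from 4.48 to 20.9 (median 12.6) and Axin2 from 7.97 to 24.5 (median 19.2). Most treated mice were above the untreated median, 14 of 16 for Tbx3, 15 for Lgr5 and 14 for Axin2. The log2 differences were 0.37 for Tbx3 (95% interval 0.01 to 0.72, adjusted p = 0.19, edgeR quasi-likelihood test), 0.33 for Lgr5 (0.03 to 0.63, 0.16) and 0.17 for Axin2 (-0.12 to 0.46, 0.53).

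Lhpp showed the least difference, with 18.0 to 102 CPM and a median of 72.5 on atorvastatin. Its log2 difference was -0.01 (95% interval -0.30 to 0.28, adjusted p = 0.98, edgeR quasi-likelihood test). The interval of Cyp1a2 was 0.55 to 1.02. Whether these genes differed in their response was not tested. With limma-voom, which gives outlying libraries less weight, 5 members were called in place of 1, adding Cyp2e1, Slc1a2, Lgr5 and Tbx3. Over all genes limma-voom called 3145 in place of 1106, so the count of calls rose there too.

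Compared with chow, atorvastatin-treated mice had 2 of the 8 tested members lower and none higher, in a background of 25.0% called, 10.7% lower and 14.2% higher. The median log2 difference of the members was -0.39, beside 0.04 over all genes. No member had fully separate groups, which 1.50% of all genes showed in the lower direction. Lhpp fell by 0.99 on the log2 scale (SE 0.16, adjusted p = 4.2e-06, edgeR quasi-likelihood test) and Slc1a2 fell by 0.93 (0.22, 0.00088). For both, 15 of 16 treated mice were below every chow-fed mouse.

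Cyp2e1 lay just short of the threshold at -0.62 (95% interval -1.01 to -0.22, adjusted p = 0.012, edgeR quasi-likelihood test), with 13 of 16 treated mice below every chow-fed mouse. Tbx3 gave -0.53 (-0.93 to -0.13, adjusted p = 0.034). Cyp1a2 gave -0.23 (-0.50 to 0.03, adjusted p = 0.18), with 13 of 16 treated mice below the chow median and 7 below every chow-fed mouse. Lgr5 gave -0.26 (-0.60 to 0.09, adjusted p = 0.26), Glul -0.09 (-0.42 to 0.23, 0.69) and Axin2 0.07 (-0.26 to 0.40, 0.78).

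**Figure D2:**
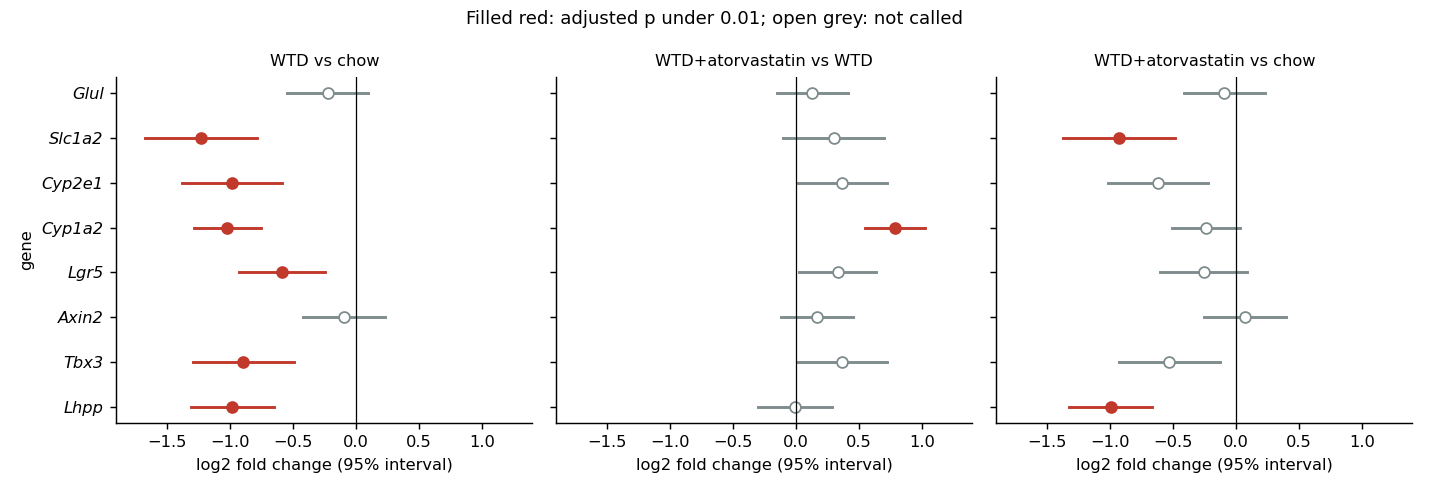
Log2 fold changes of the 8 tested members in the 3 comparisons, with 95% intervals from the edgeR fit. Filled red points were called at an adjusted p under 0.01: 6 members lower on WTD than on chow, Cyp1a2 higher with atorvastatin than on WTD alone, and Slc1a2 and Lhpp lower with atorvastatin than on chow.

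Single mice stood apart across the members. WTD replicate 15 was the highest WTD-fed mouse for 6 of the 8 tested members and above the group median for all 8, by a median of 0.84 on the log2 scale. The same mouse had the highest summed hepatocyte markers of its group and the lowest summed macrophage, stellate cell, cholangiocyte, and T and B cell markers. Replicate 7 of the atorvastatin group was the lowest for 6 of 8 members and among the 2 lowest for all 8, with a median log2 difference of -1.36 to its group median. In this mouse Glul stood at 264 CPM, Slc1a2 at 20.7 and Lhpp at 18.0, each the lowest of its group. That mouse had the highest cholangiocyte marker sum of its group (606 CPM), whereas its hepatocyte marker sum ranked 5 from the bottom of 16. Chow replicate 6 was lowest for 5 of 8 members and had the second highest hepatocyte marker sum on chow. Such sums follow their most abundant genes. With atorvastatin, Alb averaged 78327 CPM beside a median hepatocyte sum of 112316. Spp1 averaged 302 CPM there, beside a median cholangiocyte sum of 330. The part of these marker levels in the results was not tested. Without the first 2 of these mice, chosen because of their member values, the members called were 6 on WTD against chow, 2 with atorvastatin against WTD (Cyp1a2, and Cyp2e1 with a log2 fold change of 0.57) and 3 with atorvastatin against chow. Over all genes, calls with atorvastatin against WTD rose from 1106 to 1715 without them.

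**Figure D3:**
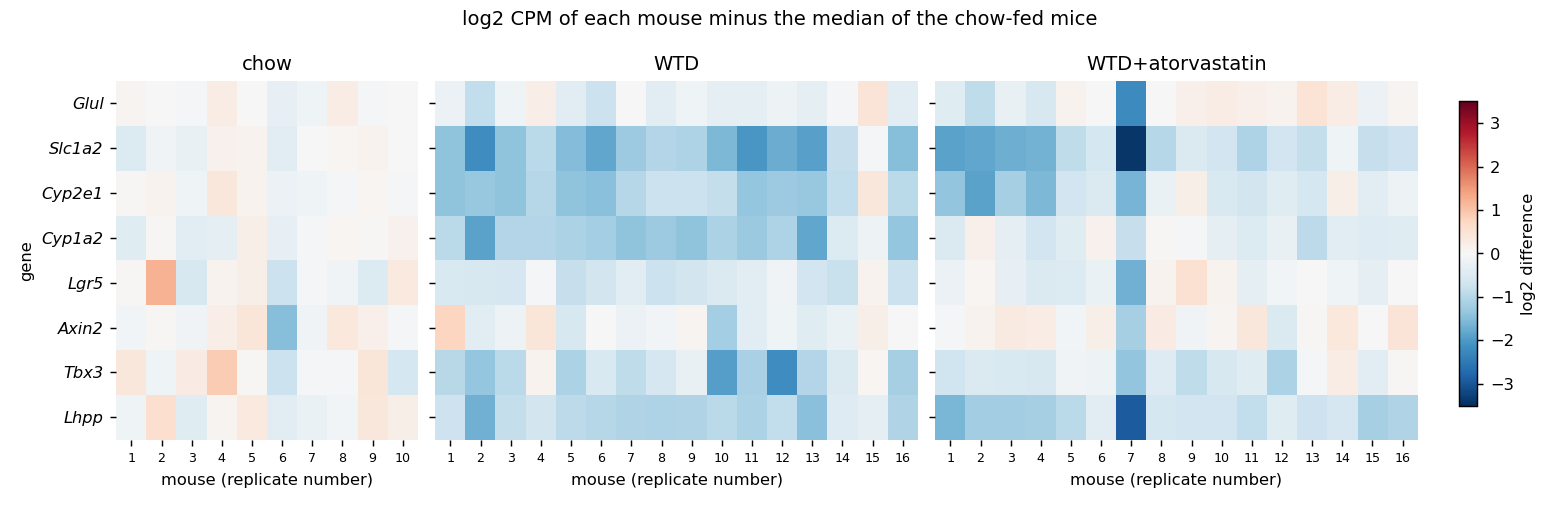
Log2 CPM of the 8 tested members in each mouse, minus the median of the chow-fed mice, with 1 column per mouse and 1 panel per group. Blue is lower and red higher. The column of atorvastatin replicate 7 is the darkest, and that of WTD replicate 15 stands out as near the chow level.

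Summed marker levels of several liver cell types moved with diet, though not every marker of a list followed its sum. Summed over 10 hepatocyte markers, the level ranged from 116600 to 165052 CPM on chow, from 57671 to 111114 on WTD and from 67037 to 133803 with atorvastatin. All 9 tested hepatocyte markers were called lower on WTD, beside 16.0% of all tested genes, with a median log2 fold change of -0.78. The untested one, Trf, had 9 counts in all and is overlapped by a gene on its strand. The 8 macrophage markers summed to 371 to 560 CPM on chow, 2142 to 3700 on WTD and 1588 to 2585 with atorvastatin. The 6 cholangiocyte markers summed to 78.6 to 156, 183 to 850 and 217 to 606 CPM, and the 10 stellate cell and fibroblast markers to 395 to 664, 1149 to 2633 and 1036 to 2477 CPM. The 8 endothelial markers overlapped in all groups, at 241 to 363, 206 to 373 and 261 to 372 CPM. The 8 T and B cell markers summed to 14.2 to 72.9, 47.4 to 90.7 and 47.2 to 66.9 CPM. On WTD, 7 macrophage and 6 cholangiocyte markers were called higher and none lower. Of the stellate cell markers 6 were called higher and Hhip lower (-3.10), and of the endothelial markers 2 higher and 2 lower. Ptprc (1.55) was the 1 T and B cell marker called, and 3 of those 8 were below 0. Over all tested genes 17.5% were called higher and 16.0% lower. Every tested marker had a mean level above 0 in each group, whereas the 9 counts of Trf were not split by group. How much of the members' fall went with this shift was not tested.

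Other genes of the 2 liver zones were read beside the members. Of 22 further pericentral genes, 18 were called lower and 3 higher on WTD, beside 16.0% and 17.5% of all tested genes. The median log2 fold change of the 22 was -0.81. The smallest p values were those of Cyp2c54 (log2 fold change -3.64), Cyp27a1 (-0.92), a bile acid synthesis enzyme, and Aldh1a1 (-1.07), which oxidises retinal. The 3 that rose, named after their values were seen, were Gstm3 (1.96), Slc13a3 (0.57) and Gstm1 (0.51). Of 19 periportal genes, 17 were called lower and 1, Cdh1, higher (0.88), beside the same shares, with a median of -0.86. They were led by Asl (-1.44), a urea cycle enzyme, Cyp2f2 (-2.58) and Etnppl (-1.95). The medians of the members, the further pericentral genes, the periportal genes and the hepatocyte markers thus lay between -0.94 and -0.78. Genes of the Cyp2c, Cyp3a and Gstm families share sequence, and reads that aligned to more than 1 place were not counted, so their values are less certain.

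With atorvastatin, 14 of the 19 periportal genes were called higher than on WTD alone (median log2 fold change 0.58). So were 5 of the 22 further pericentral genes (0.31) and 1 of the 8 tested members (0.32), beside 4.84% of all tested genes. Log2 differences were above 0 in 18 of the 19, 18 of the 22 and 7 of the 8. The periportal genes with the smallest p were Cyp2f2 (1.62), Hal (1.24), which breaks down histidine, and Arg1 (0.62), which cleaves arginine to urea. The further pericentral genes that rose included Prodh (0.74) and Cyp2c29 (0.66). No gene of either list was called lower. The difference between the lists was not tested. Compared with chow, 6 periportal genes remained lower and 1 was higher, while 10 further pericentral genes were lower and 2 higher. Over all tested genes, 10.7% were called lower and 14.2% higher. Asl (-1.02), Sult5a1 (-3.72) and Etnppl (-1.10) led the periportal genes, and Cyp2c54 (-3.10), Cyp3a11 (-0.75) and Aldh1a1 (-0.81) the pericentral ones.

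**Figure D4:**
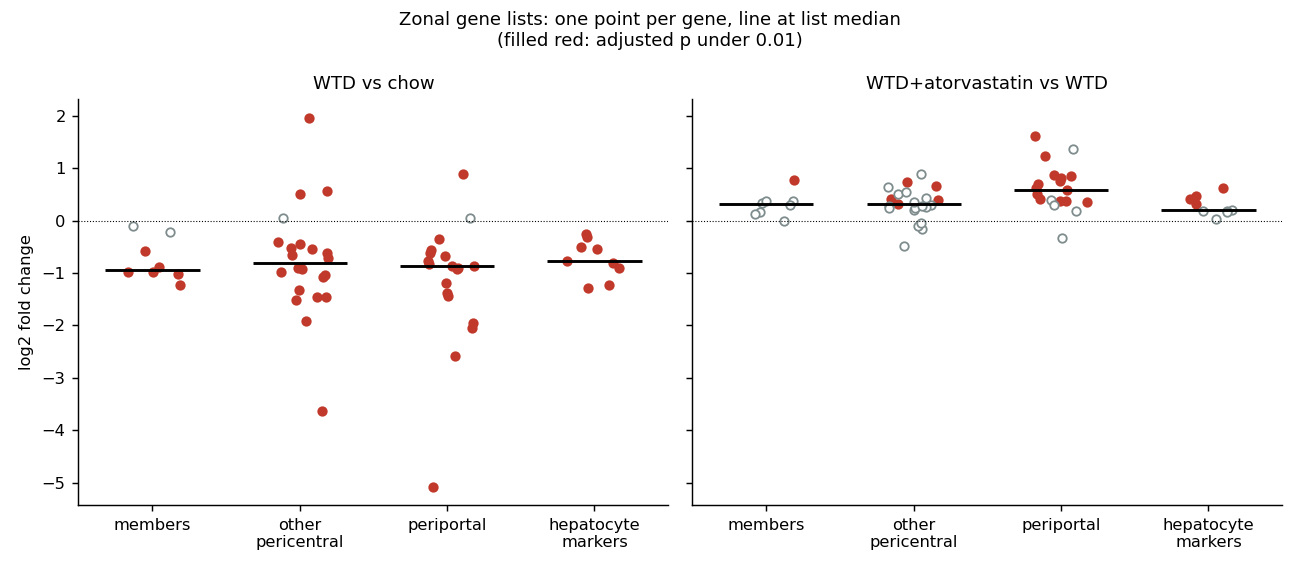
Log2 fold changes of the members, 22 other pericentral genes, 19 periportal genes and 9 hepatocyte markers on WTD against chow (left) and with atorvastatin against WTD (right). Each point is a gene, filled where the adjusted p was under 0.01, and lines mark list medians, which on the left lie between -0.94 and -0.78 and on the right are highest for periportal genes at 0.58.

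The Wnt ligands and their helpers were weakly expressed. Of 14 genes for ligands, secretion and R-spondins, 11 were tested, and WTD feeding raised 3 and lowered 1, a share near the 33.5% called over all genes. Wls, the carrier that brings Wnt proteins to the cell surface, rose from 9.17 ± 2.87 CPM (SD, n = 10) to 26.4 ± 6.80 (n = 16), a log2 fold change of 1.52 (adjusted p = 4.9e-12, edgeR quasi-likelihood test). Wnt4 (0.94) and Wnt5a (1.50) also rose, and Wnt5b fell (-0.91). The ligands known from central vein endothelium gave -0.99 for Wnt2 (standard error 0.47, adjusted p = 0.082) and -0.84 for Wnt9b (0.71, 0.36), and Rspo3, the main R-spondin there, gave 0.03 (0.27, 0.93). Wnt2 stood at 4.21 ± 1.77 CPM on chow and 2.12 ± 1.36 on WTD, and Wnt9b at 1.86 ± 1.24 and 1.03 ± 1.04, in the range where single libraries miss genes. The remaining tested genes were not called, with log2 differences of 1.74 for Wnt11, 1.43 for Rspo1, 1.17 for Wnt9a and -0.64 for Porcn. With atorvastatin none of the 11 was called against WTD, where 7.10% of all tested genes were. There Wls gave -0.44 (adjusted p = 0.012), Wnt4 -0.53 (0.023) and Wnt5a -0.87 (0.026) by edgeR's quasi-likelihood test. Against chow, Wls stayed higher (1.08) and Wnt5b lower (-1.06), beside 14.2% of all tested genes called higher and 10.7% lower.

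Of 15 tested Wnt receptors, 3 were higher and 1 lower on WTD, no larger a share than the 33.5% over all genes. Lgr4, the R-spondin receptor related to Lgr5, fell from 48.3 ± 7.59 CPM (SD, n = 10) to 26.4 ± 5.55 (n = 16), with a log2 fold change of -0.87 (adjusted p = 5.5e-08, edgeR quasi-likelihood test). It was the 1 receptor called with atorvastatin against WTD, beside 7.10% of all tested genes. There it was higher by 0.41 (adjusted p = 0.0085, edgeR quasi-likelihood test). Fzd1 (1.41), Lrp5 (0.38) and Fzd3 (2.78) rose on WTD, Fzd3 from 0.242 to 1.71 CPM. Against chow the atorvastatin group had Lrp5 (0.54) and Fzd1 (0.94) higher and Lgr4 (-0.47) lower. Over all tested genes 14.2% were called higher and 10.7% lower there.

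Of 23 genes of signal transduction, 4 were higher and 1 lower on WTD, a smaller share than the 33.5% over all genes. None was called with atorvastatin against WTD, where 7.10% of all genes were. Ctnnb1, which encodes beta-catenin, rose from 234 ± 23.4 CPM (SD, n = 10) to 348 ± 28.6 (n = 16), a log2 fold change of 0.58 (adjusted p = 1.3e-11, edgeR quasi-likelihood test). Dvl1 fell (-0.69) and Csnk1a1 rose (0.26), as did Tle3 (0.59) and Bcl9 (0.47). With atorvastatin, Ctnnb1 (0.48) and Tle3 (0.66) stayed above chow and Dvl1 (-0.43) below it. In all, 4 genes were higher and 1 lower, beside 14.2% and 10.7% of all tested genes.

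Among 13 tested feedback targets and inhibitors, 4 were higher and 1 lower on WTD, close to the share of 33.5% over all genes. Notum, a pericentral Wnt target that removes the lipid from Wnt proteins, fell from 93.3 ± 8.76 CPM (SD, n = 10) to 42.2 ± 13.6 (n = 16) and stood at 62.2 ± 11.3 (n = 16) with atorvastatin. Its log2 fold changes were -1.14 on WTD against chow (adjusted p = 4.5e-11), 0.56 with atorvastatin against WTD (0.00033) and -0.59 against chow (0.00013), all by edgeR's quasi-likelihood test. It was the 1 gene of the list called with atorvastatin against WTD, beside 7.10% of all tested genes. The secreted inhibitors Frzb (1.80) and Dkk3 (2.17) rose on WTD, as did Nkd2 (2.76). Dkk2 was called higher as well, from 0.00595 to 1.03 CPM, too few counts on chow for a fold change. Frzb (1.24), Dkk3 (1.26) and Dkk2 were above chow with atorvastatin too, where 14.2% of all tested genes were called higher and 10.7% lower.

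The neighbouring reactions of Glul, Slc1a2, Oat and Rhbg were covered by 21 genes of glutamine, glutamate, ornithine and ammonium handling, of which 19 were tested. On WTD 8 were called lower and 5 higher (median log2 fold change -0.04), beside 16.0% and 17.5% of all tested genes. The periportal glutaminase Gls2 fell (-1.39), whereas Aldh18a1 (2.07), which makes proline precursors from glutamate, rose. With atorvastatin against WTD 6 were called higher, beside 4.84% of all tested genes, and none lower. The 6 were led by Gls2 (0.86), Prodh (0.74) and Slc38a3 (0.78), a glutamine transporter of the hepatocyte surface. Against chow 4 were called higher and 1 lower, beside 14.2% and 10.7% of all tested genes. Aldh18a1 (2.25), Slc38a1 (1.73) and Slc1a4 (1.15) led them. Rhcg and Aldh4a1 overlap other same-strand genes as Oat does and had 0 counts.

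Cyp1a2 is also a classical target of the aryl hydrocarbon receptor, so 8 genes of that system were read beside it. On WTD, Ahr itself fell (log2 fold change -0.44), and Cyp1b1 (2.84), Arnt (0.37) and Nqo1 (0.57) rose. These were 3 called higher and 1 lower, beside 17.5% and 16.0% of all tested genes. None of the 8 was called with atorvastatin against WTD, the comparison in which Cyp1a2 rose and 7.10% of all tested genes were called. Against chow, Cyp1b1 (2.12), Nqo1 (0.62) and Arnt (0.29) were higher with atorvastatin, where 14.2% of all tested genes were.

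Within groups, mice high for 1 member tended to be high for others. Log2 CPM of each of the 28 pairs of tested members was correlated over the mice of each group, 84 relations in all, with permutation tests and Benjamini-Hochberg adjustment over the 84. All 28 Pearson r were above 0 in WTD-fed mice (median 0.49) and in atorvastatin-treated mice (median 0.61), and 24 of 28 on chow (median 0.49). By Pearson r 2 pairs passed an adjusted permutation p of 0.05 on chow, 10 on WTD and 12 with atorvastatin. By both r and Spearman's rho 0, 3 and 5 passed. Without the 2 mice farthest from the median of the first gene 0, 1 and 3 passed. The r of Tbx3 and Slc1a2 with atorvastatin went from 0.62 to 0.14, so that relation rested on those mice. On WTD the same pair no longer passed although its r was 0.69 with all mice and 0.71 without the 2. The members of a pair share library, depth and cell mixture, whose part was not tested.

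The closest pair on WTD was Cyp1a2 and Lhpp (r = 0.96 and rho = 0.95 over 16 mice, permutation p = 1e-05 for both, the smallest that 100000 permutations can give, adjusted 0.00084). It held without the 2 farthest mice at r = 0.96 (adjusted permutation p = 0.00084). With atorvastatin the pairs that held by all 3 measures each contained Slc1a2. Its r with Cyp2e1 was 0.84 (rho 0.85, adjusted permutation p = 0.00084 and 0.0029) and 0.91 without the 2 farthest mice. With Glul r was 0.93 (rho 0.73, adjusted permutation p = 0.00084 and 0.034) and 0.78 without them, and with Lhpp 0.92 (rho 0.82, adjusted permutation p = 0.00084 and 0.0070) and 0.74 without them.

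Across all 15574 tested genes, those most like each member were ranked by Spearman's rho of log2 CPM over the 42 mice after subtraction of group means. This likeness carries no test, and the values share library, depth and cell mixture. Cyp2e1 was closest to Slc27a2 (0.86), Nr1i3 (0.85) and Slc1a2 (0.84), and Slc1a2 to Proz (0.86), Car5a (0.84) and Cyp2e1 (0.84). Lhpp was closest to Sardh (0.86), Slc27a5 (0.84) and Rdh16 (0.83), and Glul to Ugt3a2 (0.83) and Slc10a1 (0.81). Lower values led the lists of Cyp1a2 (Aldh7a1 0.71, Gstm6 0.71, Aldh1l1 0.70), Tbx3 (Pctp 0.72, Rnf43 0.71, Plpp3 0.69) and Lgr5 (Sult2a1 0.67, Cyp3a16 0.64, Sult2a3 0.61). Axin2 was closest to Tbx3 (0.59), Znrd1as (0.59) and Copg2 (0.57).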

How the data were processed

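Liver RNA of 42 mice was sequenced in strand-specific libraries. The authors trimmed reads with Trimmomatic, aligned them to GRCm38 with STAR 2.5 and counted reads per gene with HTSeq 0.6.1p1, and they deposited raw counts without normalization. Gene symbols came from GENCODE vM21 (54409 of 54446 identifiers matched), while the authors' annotation was an earlier release. Summary lines (no gene 2.00% to 2.78%, ambiguous 5.43% to 6.57%, more than 1 place 4.07% to 5.36% of reads per mouse) were left out. Counts per mouse ranged from 15661381 to 36224054.

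After filterByExpr (at least 10 counts per library, 15 in total) and TMM scaling, edgeR 4.0.16 in R 4.3.3 ran its robust quasi-likelihood test across all 15574 genes, on all 42 mice and without covariates, with Benjamini-Hochberg adjustment. Standard errors are the log2 fold change over the square root of F. Alternatives were DESeq2 1.42.0, limma 3.58.1 (voom), RLE and upper-quartile scaling, no filter, a minimum of 10 counts in each mouse, removal of the 20 most abundant genes, only the compared groups, other thresholds, and leaving out mice. Outside the members, the named genes were all tested ligands and the 3 smallest p values among the called genes of each list and comparison. Some genes that this rule takes are left out of the text. Bcl9, Cdh1, Fzd3, Nkd2, Gstm1, Gstm3 and Slc13a3 fall outside the rule and were named after their values were seen, to complete small counts. The members and lists were chosen with earlier results of these data known. The edgeR fit and the permutation test of Pearson r were tested on simulated data, and the other methods were not. Plots used Python 3.11.15 and matplotlib 3.10.9.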

Additional observations from a re-analysis of the deposited data

Results flagged for a closer look

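Of the 9 members with counts, 4 had a chow-fed mouse whose gap to the nearest other mouse, relative to the range of the 10 mice, exceeded Dixon's 95% critical value of 0.466. Chance flags about 1 in 20 groups, and the WTD groups, with 16 mice each, were not examined this way. Cyp2e1 was 8362.58 CPM in chow replicate 4, the next mouse being at 6838 (ratio 0.532). Lgr5 was 33.2138 CPM in chow replicate 2, the next being at 18.0 (0.616). Without that mouse the fall of Lgr5 on WTD was no longer called. Axin2 was 6.33524 CPM in chow replicate 6, with the next lowest at 16.2 (0.566). Rhbg was 3.00764 CPM in the same mouse, against 0.375 in the next (0.875), from counts that cover little of the gene. With 7 of the 10 chow-fed mice at 0 for Rhbg, its ratio says little and the chance rate above does not apply to it. The libraries of chow replicates 2 and 6 lacked 59.0% and 26.8% of the genes at 1 to 2 CPM.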

How the results depend on the processing

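No paired analysis was possible because the replicate numbers are only names given in accession order. Of the 10 members, 6 were called on WTD against chow, 1 with atorvastatin against WTD and 2 with atorvastatin against chow. An added absolute log2 fold change of at least 1 left 2, 0 and 0. For atorvastatin against WTD, limma-voom called 5, and leaving out the 2 mice that stood apart, an alternative chosen after the data were seen, called 2 (over all genes 3145 and 1715, against 1106). For atorvastatin against chow, fitting only the 2 groups called 4, while over all genes it called 3856 in place of 3893. An adjusted p under 0.05 also called 4. Counts over all genes at these other thresholds are not given here. The pairs of members that passed by Pearson r were 2 on chow, 10 on WTD and 12 with atorvastatin. Without the 2 farthest mice 0, 1 and 3 passed, and on the CPM scale 7 passed with atorvastatin. Among single members the sign turned for 2 small differences. Lhpp with atorvastatin against WTD was -0.01 and became 0.094 with limma-voom and 0.11 without the 2 mice that stood apart, and ranged from -0.052 to 0.060 when each mouse was left out. Axin2 with atorvastatin against chow was 0.07 and became -0.00058 without the 8 libraries poor in weak genes, and ranged from -0.027 to 0.127 when each mouse was left out. The cause was not tested. Cyp1a2, Cyp2e1, Tbx3, Slc1a2 and Lhpp on WTD against chow were called under each of the 10 other fits and with each of the 42 mice left out. Cyp2e1 with atorvastatin against chow was called in 6 of those 10 fits.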
